A study of Mus musculus with 12 samples.

Results

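Ionotropic glutamate receptor subunits were followed in the striatum of mice that carried either of 2 huntingtin knock-in alleles, with or without the metabotropic receptor mGluR5. The subunits were chosen by name, with earlier results of these data known. They were the AMPA receptor genes Gria1, Gria2, Gria3 and Gria4, the NMDA receptor genes Grin1, Grin2a and Grin2b, and the kainate receptor genes Grik1, Grik2 and Grik5. Of these 10 genes, 9 had a probe set annotated with their symbol alone, 1 probe set each, and all 9 were among the 16721 genes tested of 19938 genes with such a probe set. Grin1, the obligatory subunit of NMDA receptors, had none and was not analysed here.

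The study crossed HdhQ111/Q111 and HdhQ20/Q20 mice with mice null for mGluR5 and measured striatal RNA on 12 arrays. The groups were Q111 mGluR5-/- (the double mutant), Q111 mGluR5+/+, Q20 mGluR5-/- and Q20 mGluR5+/+ (the double control), with 3 arrays each. All were male, 90 days old and of a mixed 129, CD-1, C57BL/6 and FV background. Both huntingtin alleles are knock-in alleles present on both chromosomes, so every group carried one: Q111 is the long polyglutamine tract used as a model of Huntington's disease, and Q20 is the short-tract control. Whether each array stands for its own animal is not given in the labels, and p-values therefore measure the spread between arrays, which may be technical.

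Ionotropic receptors are ligand-gated cation channels of 4 subunits that carry fast excitatory transmission, and in the striatum they receive the cortical and thalamic input to projection neurons. AMPA receptors open first, NMDA receptors need a co-agonist and relief from magnesium block, and kainate receptors act on both sides of the synapse. mGluR5, encoded by Grm5, is coupled to G proteins instead and can raise NMDA receptor currents. NMDA receptors with the Grin2b subunit have long been studied in excitotoxicity models of Huntington's disease.

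No subunit passed the threshold in any comparison, and the 95% interval of each difference lay within 1.5-fold in either direction. The values are log2 signals as the authors normalised them, and a gene was called when limma's Benjamini-Hochberg adjusted p, taken over all 16721 genes, was below 0.05. The labels were checked first on the deleted gene. Grm5 read 11.14, 11.09 and 10.98 log2 units in Q111 mGluR5-/- arrays, against 11.96, 12.01 and 11.85 in Q111 mGluR5+/+ arrays. It read 11.06, 10.93 and 11.17 in Q20 mGluR5-/- arrays, against 11.95, 12.08 and 11.97 in Q20 mGluR5+/+ arrays. The change was -0.87 ± 0.09 (SE) in Q111 and -0.94 ± 0.09 in Q20 on the log2 scale, with limma adjusted p = 0.00017 and 0.000189. Grm5 signal in the mGluR5-/- arrays still lay above the array medians of 7.05 to 7.16. The probe set thus separated the genotypes without showing a full loss of signal, and the reason was not tested. As a check of the tissue, 10 markers of striatal projection neurons averaged 11.28 to 11.44 log2 units per array, where the array medians lay between 7.05 and 7.16. In bulk tissue, fewer cells of a type and less RNA per cell cannot be told apart.

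Promoter windows give the sequence context of the pair of subunits with RefSeq windows that moved most closely together across arrays, Gria2 and Grik2, and of Grik5, which did not follow Gria2. RefSeq windows (build GRCm38.p6, 250 bases before to 50 after the start) were matched for 4 of the 9 measured subunits, and the 3 below are read 5′ to 3′ on the minus strand, with a motif match in capitals. They lie at chr3:80802786-80803085 for Gria2, chr10:49788705-49789004 for Grik2 and chr7:25072320-25072619 for Grik5.
Gria2: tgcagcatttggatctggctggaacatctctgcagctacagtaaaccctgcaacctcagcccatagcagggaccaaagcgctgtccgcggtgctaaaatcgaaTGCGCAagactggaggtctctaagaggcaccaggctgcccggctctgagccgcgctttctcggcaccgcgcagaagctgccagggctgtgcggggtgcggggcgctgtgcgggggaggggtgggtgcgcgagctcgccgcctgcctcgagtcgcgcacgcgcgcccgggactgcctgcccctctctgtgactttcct
Grik2: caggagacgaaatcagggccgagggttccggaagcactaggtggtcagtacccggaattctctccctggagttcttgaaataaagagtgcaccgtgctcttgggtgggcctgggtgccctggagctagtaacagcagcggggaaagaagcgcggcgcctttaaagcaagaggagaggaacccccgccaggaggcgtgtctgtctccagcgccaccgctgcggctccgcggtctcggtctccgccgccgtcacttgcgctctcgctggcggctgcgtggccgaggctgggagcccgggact
Grik5: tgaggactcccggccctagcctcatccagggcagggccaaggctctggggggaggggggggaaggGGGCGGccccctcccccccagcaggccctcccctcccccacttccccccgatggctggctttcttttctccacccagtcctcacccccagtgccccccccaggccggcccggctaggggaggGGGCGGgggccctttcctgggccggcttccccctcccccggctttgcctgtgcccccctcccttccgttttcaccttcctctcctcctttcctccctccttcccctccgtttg
Each window was searched on both strands for GGGCGG (a GC box), TGCGCA (the core of the NRF-1 motif), TGACGTCA (the cyclic AMP response element) and TTCAGCACC (the left part of the RE1 element). The Gria2 window held TGCGCA at position 104 of the window, and 7.76% of 32851 windows of the same length held that motif. The Grik5 window held GGGCGG at positions 66 and 188, a motif found in 35.7% of windows. The Grik2 window held none of these letters, and TGACGTCA and TTCAGCACC, found in 1.79% and 0.371% of all windows, were in none of the 4 matched windows. GC content was 65.7% for Gria2, 64.7% for Grik2 and 72.0% for Grik5, where the median window had 52.7%. These matches describe the letters only.

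The Q111 allele was compared with Q20 in mice that kept mGluR5, then in mice that lacked it. With mGluR5 present, 0 of 9 subunits were called, where 0.574% of all tested genes were; 3 subunits had a positive change and 6 a negative one, with a median of -0.0017 against -0.01 over all genes (log2). Without mGluR5, 0 of 9 were called against a background of 0.885%, with 2 positive, 7 negative and a median of -0.06 against -0.02 over all genes. Averaged over both mGluR5 genotypes, 0 of 9 were called against 1.32%, with 2 positive and 7 negative.

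Loss of mGluR5 was compared within each huntingtin genotype. In Q111 mice, 0 of 9 subunits were called against a background of 0.275%, and 7 of the 9 changes were negative. Their median was -0.07 against 0.0063 over all genes, of which 52.6% had a positive change. In Q20 mice, 0 of 9 were called against 0.299%, and 6 of the 9 were positive. There the median was 0.0038 against 0.02 over all genes, of which 57% had a positive change. Averaged over both, 0 of 9 were called against 0.293%. The interaction, the mGluR5 effect in Q111 minus that in Q20, called 0 of 9 against 0.437%, and the double mutant against the double control called 0 of 9 against 0.556%. Among the 72 limma tests of subunits (9 genes in 8 comparisons), 2 had an unadjusted p below 0.05, Grin2b in the double mutant and Grik1 in the averaged Q111 effect, and an unmoderated linear model with the same adjustment also called 0. In a comparison of 3 arrays against 3, an exact permutation test of a single subunit cannot go below 0.1. The sign of 34 of the 72 values changed under at least 1 alternative setting, and none of these 34 was larger than 0.12 in size, so the counts of positive and negative values are descriptions of this fit.

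**Figure D1:**
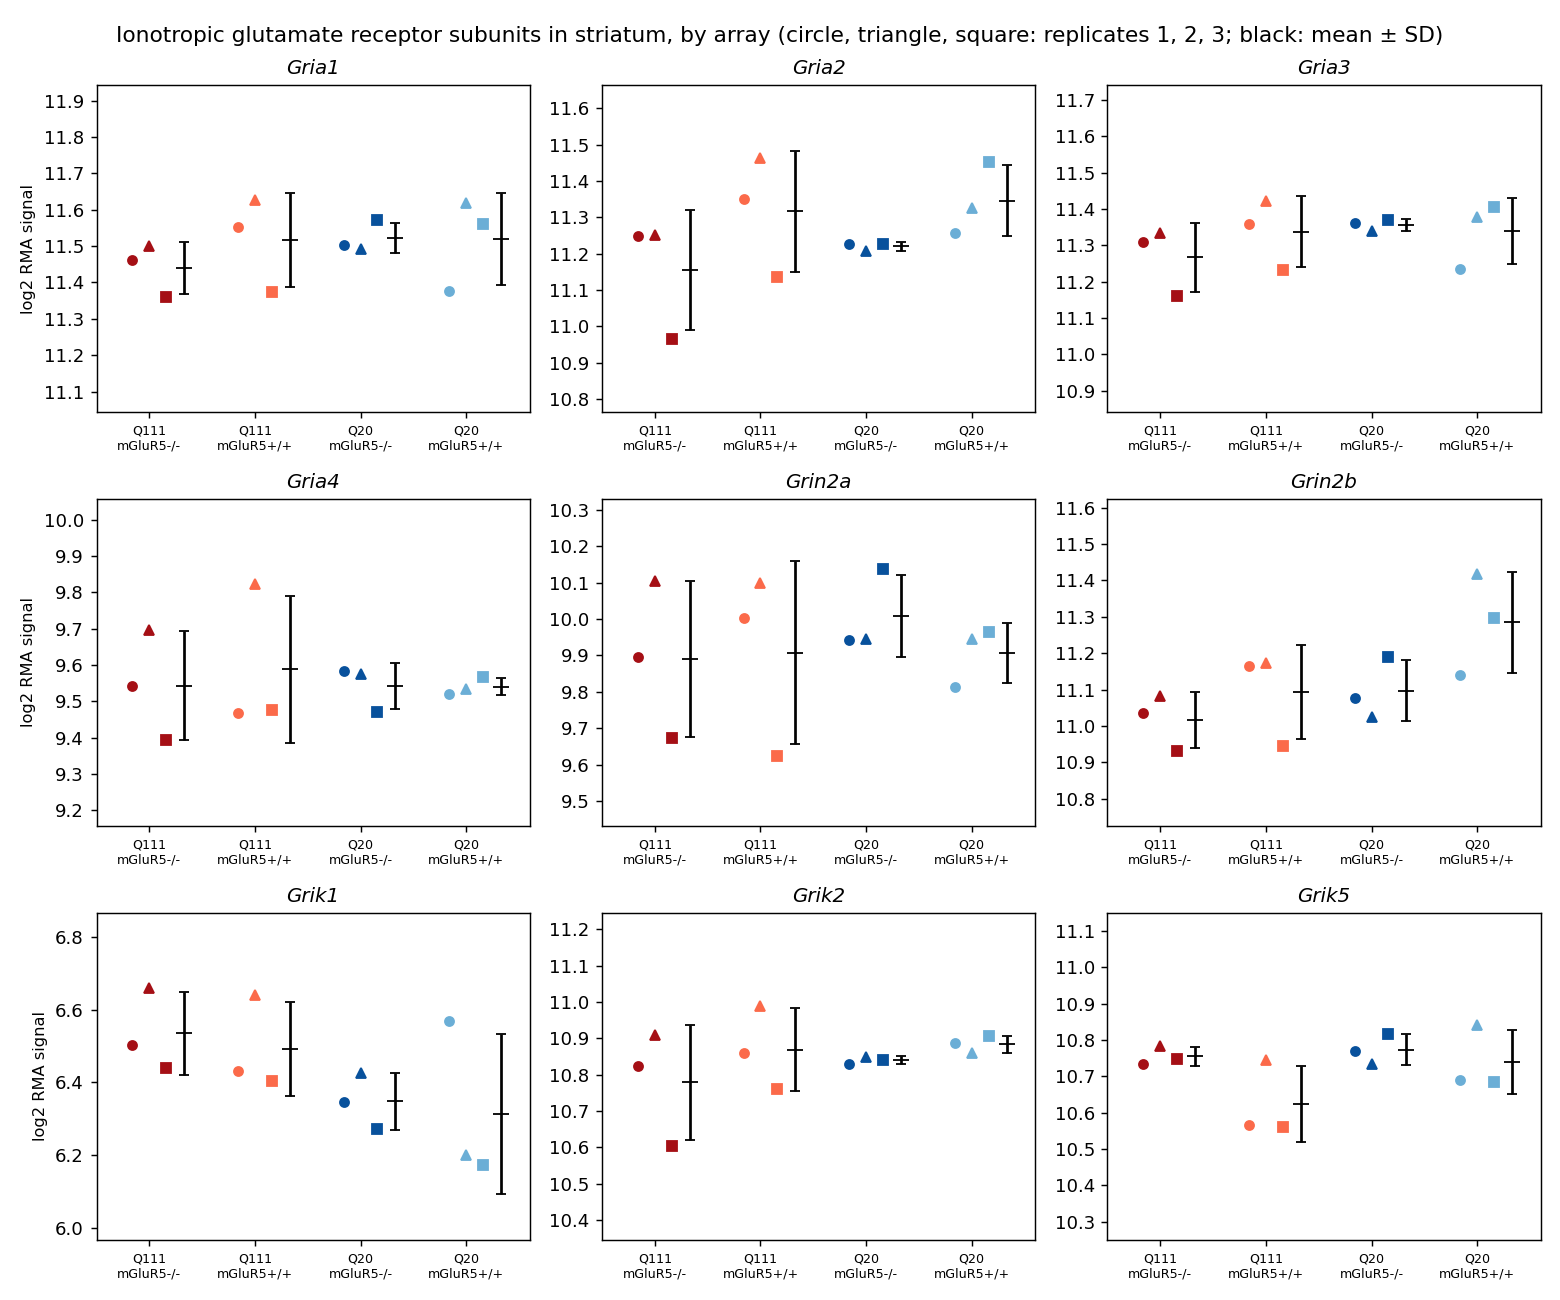
Log2 signal of the 9 measured subunits on every array, with a panel for each gene and the groups ordered from Q111 mGluR5-/- to Q20 mGluR5+/+; points are arrays, and the bar and whiskers are the mean and SD of 3 arrays. Panels have their own axes and their levels are not comparable between genes. Grin2b is lowest in the double mutant (mean 11.02) and highest in the double control (mean 11.28). Every pair of groups overlaps for Gria1, Gria4, Grin2a and Grik5, and at least 1 pair does not for each of the other subunits.

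Grin2b encodes the GluN2B subunit, which binds glutamate and slows the closing of the NMDA channel. It read 11.03, 11.08 and 10.93 log2 units in Q111 mGluR5-/- arrays, 11.16, 11.17 and 10.94 in Q111 mGluR5+/+ arrays, 11.08, 11.02 and 11.19 in Q20 mGluR5-/- arrays, and 11.14, 11.42 and 11.30 in Q20 mGluR5+/+ arrays. All 3 double mutant arrays lay below all 3 double control arrays, while every other pair of groups overlapped. The difference between the double mutant and the double control was -0.27 ± 0.10 (SE; 95% interval -0.48 to -0.05), or 1.21-fold lower, and did not pass the threshold (limma unadjusted p = 0.0174, adjusted p = 0.47). Each single genotype also had a negative value relative to the double control, -0.19 ± 0.10 for Q111 alone and -0.19 ± 0.10 for mGluR5 loss alone, with limma adjusted p = 0.788 and 0.91. Leaving out 1 array brought the value for Q111 alone to -0.12 (without replicate 3 of Q111 mGluR5+/+) and that for mGluR5 loss alone to -0.12 (without replicate 2 of Q20 mGluR5+/+). The interaction was 0.11 ± 0.14. In the order of group means, the gap between Q20 mGluR5+/+ and the next group exceeded the pooled SD of 0.11, and the other 3 groups were separated by less than it.

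Grin2a encodes GluN2A, the subunit of faster NMDA channels that becomes abundant after birth. It read 9.90, 10.10 and 9.67 in Q111 mGluR5-/- arrays, 10.002, 10.10 and 9.62 in Q111 mGluR5+/+ arrays, 9.94, 9.95 and 10.14 in Q20 mGluR5-/- arrays, and 9.81, 9.94 and 9.97 in Q20 mGluR5+/+ arrays. The groups overlapped in all 6 pairings, and neighbouring means differed by 0.10 or less where the pooled SD was 0.18. Its interaction carried the widest bound of any subunit, with a 95% interval that reached 0.51 in size, or 1.43-fold.

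The balance of the 2 NMDA subunits was also followed as Grin2a minus Grin2b on each array. Its absolute size depends on the probes, so only its shift between groups can be read. It averaged -1.12 ± 0.14 (SD, n = 3) in Q111 mGluR5-/-, -1.19 ± 0.12 in Q111 mGluR5+/+, -1.09 ± 0.04 in Q20 mGluR5-/- and -1.38 ± 0.08 in Q20 mGluR5+/+. The Q20 mGluR5+/+ arrays, at -1.474 to -1.325, lay below the arrays of the other groups by a narrow margin. The closest of those was a Q111 mGluR5+/+ array at -1.320. Differences computed in the same way between AMPA subunits did not set Q20 mGluR5+/+ apart from all other groups. No test was made of the Grin2a minus Grin2b difference.

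Gria2 encodes GluA2, the AMPA subunit whose edited form makes the channel nearly impermeable to calcium. It read 11.25, 11.25 and 10.97 in Q111 mGluR5-/- arrays, 11.35, 11.46 and 11.14 in Q111 mGluR5+/+ arrays, 11.23, 11.21 and 11.23 in Q20 mGluR5-/- arrays, and 11.26, 11.33 and 11.45 in Q20 mGluR5+/+ arrays. In Q20 mice the mGluR5-/- arrays lay below the mGluR5+/+ arrays, and the double mutant arrays lay below those of the double control, whereas in Q111 mice the mGluR5 genotypes overlapped. The averaged effect of mGluR5 loss was -0.14 ± 0.08 (limma unadjusted p = 0.0782, adjusted p = 1.0). The means ran from Q20 mGluR5+/+ through Q111 mGluR5+/+ and Q20 mGluR5-/- to Q111 mGluR5-/-, and no neighbours differed by more than the pooled SD of 0.13.

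The other AMPA subunits moved less. Gria1, which encodes GluA1 and is a main target of activity-dependent insertion at synapses, averaged 11.44 ± 0.07 (SD, n = 3) in Q111 mGluR5-/-, 11.52 ± 0.13 in Q111 mGluR5+/+, 11.52 ± 0.04 in Q20 mGluR5-/- and 11.52 ± 0.13 in Q20 mGluR5+/+. Gria3, which encodes GluA3 and lies on the X chromosome, averaged 11.27 ± 0.09, 11.34 ± 0.10, 11.36 ± 0.02 and 11.34 ± 0.09 in the same groups. For Gria3 the Q111 mGluR5-/- arrays lay below the Q20 mGluR5-/- arrays without overlap, at 11.31, 11.33 and 11.16 against 11.36, 11.34 and 11.37. Gria4, which encodes GluA4, averaged 9.54 ± 0.15, 9.59 ± 0.20, 9.54 ± 0.06 and 9.54 ± 0.02, the narrowest span of group means of the 9 subunits at 0.048. No neighbouring group means of these 3 genes differed by more than their pooled SD.

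Grik1 encodes GluK1, a kainate subunit that can form channels by itself. It read 6.504, 6.66 and 6.44 in Q111 mGluR5-/- arrays, 6.43, 6.64 and 6.41 in Q111 mGluR5+/+ arrays, 6.35, 6.43 and 6.27 in Q20 mGluR5-/- arrays, and 6.57, 6.20 and 6.17 in Q20 mGluR5+/+ arrays. Within mGluR5-/- mice all Q111 arrays lay above all Q20 arrays, and within mGluR5+/+ mice 1 Q20 array reached into the Q111 range. The averaged Q111 effect was 0.18 ± 0.08 (95% interval 0.01 to 0.36; limma unadjusted p = 0.0403, adjusted p = 0.408), so it did not pass. Its signal lay below the array medians of 7.05 to 7.16 and a little above the 25th percentiles of 5.69 to 5.94 used as the filter.

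Grik2 encodes GluK2, also able to form channels by itself, and Grik5 encodes GluK5, which binds kainate tightly and needs a partner such as GluK2. Grik2 read 10.82, 10.91 and 10.60 in Q111 mGluR5-/- arrays, 10.86, 10.99 and 10.76 in Q111 mGluR5+/+ arrays, 10.83, 10.85 and 10.84 in Q20 mGluR5-/- arrays, and 10.89, 10.86 and 10.91 in Q20 mGluR5+/+ arrays. Its mGluR5-/- arrays lay below the mGluR5+/+ arrays in Q20 mice and overlapped them in Q111 mice, and neighbouring means stayed within the pooled SD of 0.10. Grik5 read 10.73, 10.78 and 10.75 in Q111 mGluR5-/- arrays, 10.57, 10.74 and 10.56 in Q111 mGluR5+/+ arrays, 10.77, 10.73 and 10.82 in Q20 mGluR5-/- arrays, and 10.69, 10.84 and 10.68 in Q20 mGluR5+/+ arrays. Q111 mGluR5+/+ was the lowest group for Grik5, by more than the pooled SD of 0.07, and overlapped each of the other groups. Its change with mGluR5 loss in Q111 mice was 0.13 ± 0.09 and did not pass.

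Groups that did not overlap were counted against the same count over all genes. Without mGluR5, Q111 and Q20 arrays did not overlap for 2 of 9 subunits (Gria3 and Grik1), where 19.1% of all tested genes had groups without overlap and 0.885% were called. In the mGluR5 loss in Q20 mice these were Gria2 and Grik2, against 12.8% of all genes without overlap and 0.299% called. In the double mutant against the double control they were Gria2 and Grin2b, against 14.2% without overlap and 0.556% called. For Q111 with mGluR5 and for mGluR5 loss in Q111 mice it was 0 of 9 subunits, against 9.69% and 7.46% of all genes.

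**Figure D2:**
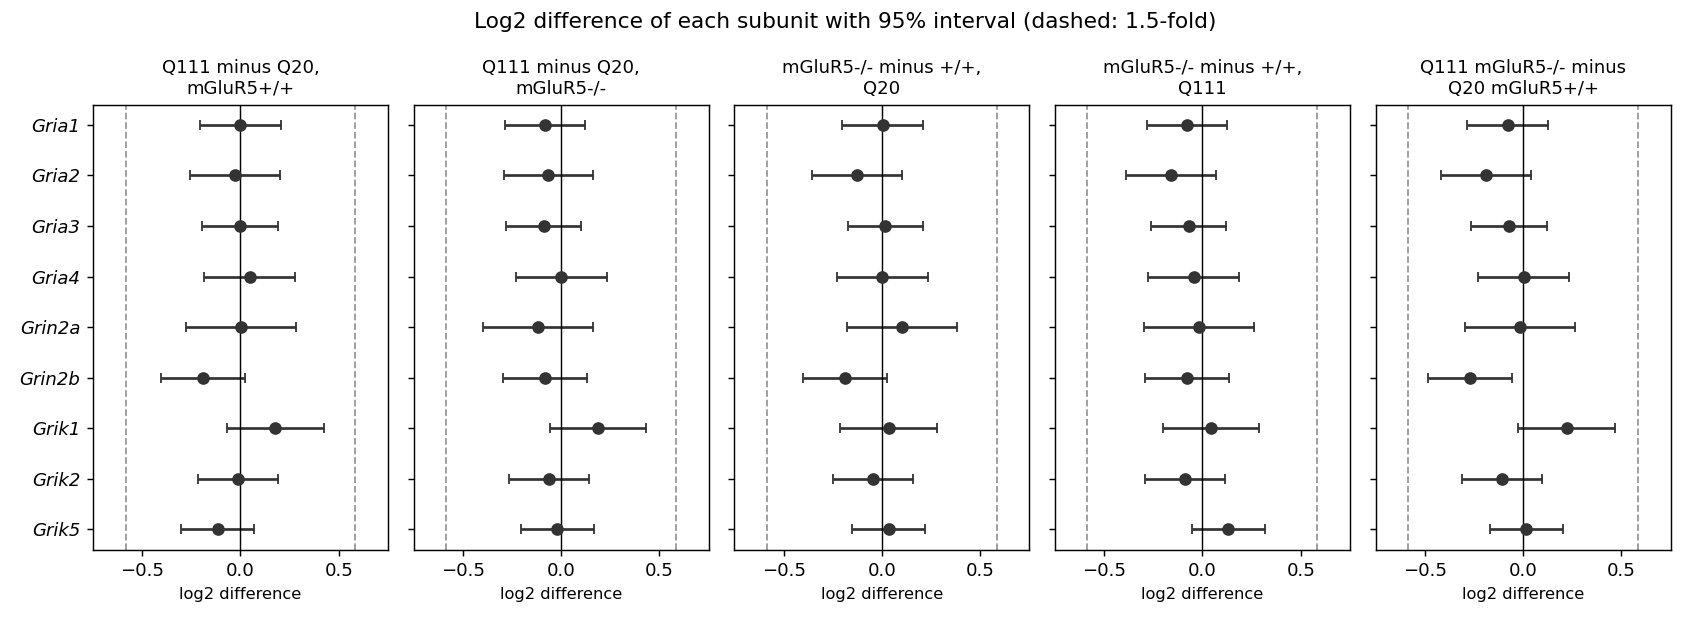
Log2 differences of the 9 subunits (rows) in the pairwise comparisons (panels), with 95% intervals from limma and dashed lines at 1.5-fold. No interval reaches a dashed line, and only that of Grin2b between the double mutant and the double control (-0.48 to -0.05) does not include 0.

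Most subunits varied together from array to array. The 36 correlations between subunits across the 12 arrays ran from -0.493 to 0.942, with a median of 0.556. Gria1 and Gria3 had the highest, 0.942, and Gria2 and Grik2 reached 0.902, or 0.895 after each group's mean was removed. Grik1 and Grik5 stood apart: the 8 correlations of Grik1 ran from -0.493 to 0.487, and those of Grik5 from -0.116 to 0.455, where the 21 pairs without either ran from 0.212 to 0.942. After removal of the group means, the correlations of Grik5 ran from 0.104 with Grik1 to 0.692 with Gria1, and that with Gria2 was 0.358. The Gria2 and Grik5 correlation over all arrays was -0.021, and that of Grin2b with Grik1 was -0.493. The points share arrays and one normalisation, so these are descriptions.

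**Figure D3:**
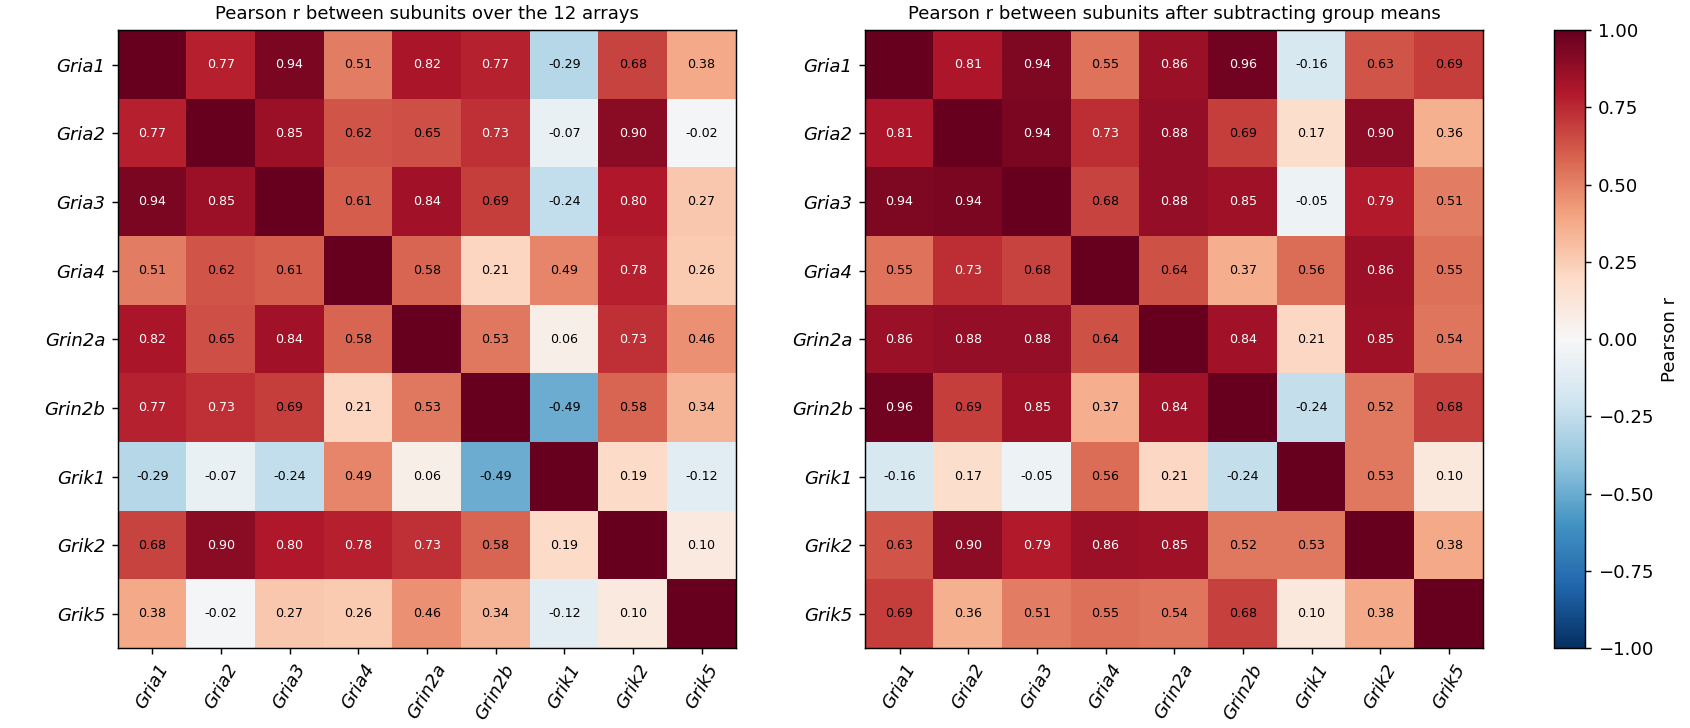
Pearson correlation between the subunits across the 12 arrays, over all arrays and after removal of each group's mean. Among all arrays the 21 pairs without Grik1 and Grik5 run from 0.212 to 0.942, and the pairs with Grik1 or Grik5 from -0.493 to 0.487.

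The same arrays were low or high for many subunits. The third Q111 mGluR5-/- array was the lowest of 12 for 6 of the 9 subunits and the third Q111 mGluR5+/+ array for 2, while the second Q111 mGluR5+/+ array was the highest for 5. The spread of all signals within an array, its interquartile range, ran from 2.56 on the third Q111 mGluR5+/+ array to 2.95 on the second Q20 mGluR5-/- array. In each group the second array had the widest interquartile range. Subunit levels correlated with the interquartile range at 0.043 (Grik1) to 0.691 (Gria4) across the 12 arrays. Among the same correlations of all tested genes, these stood at percentiles 41.6 and 81.1, so they are not particular to the subunits. The part of the interquartile range in the levels was not tested as a cause. With it as a covariate, 0 of 9 subunits were called in each of the 8 comparisons.

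**Figure D4:**
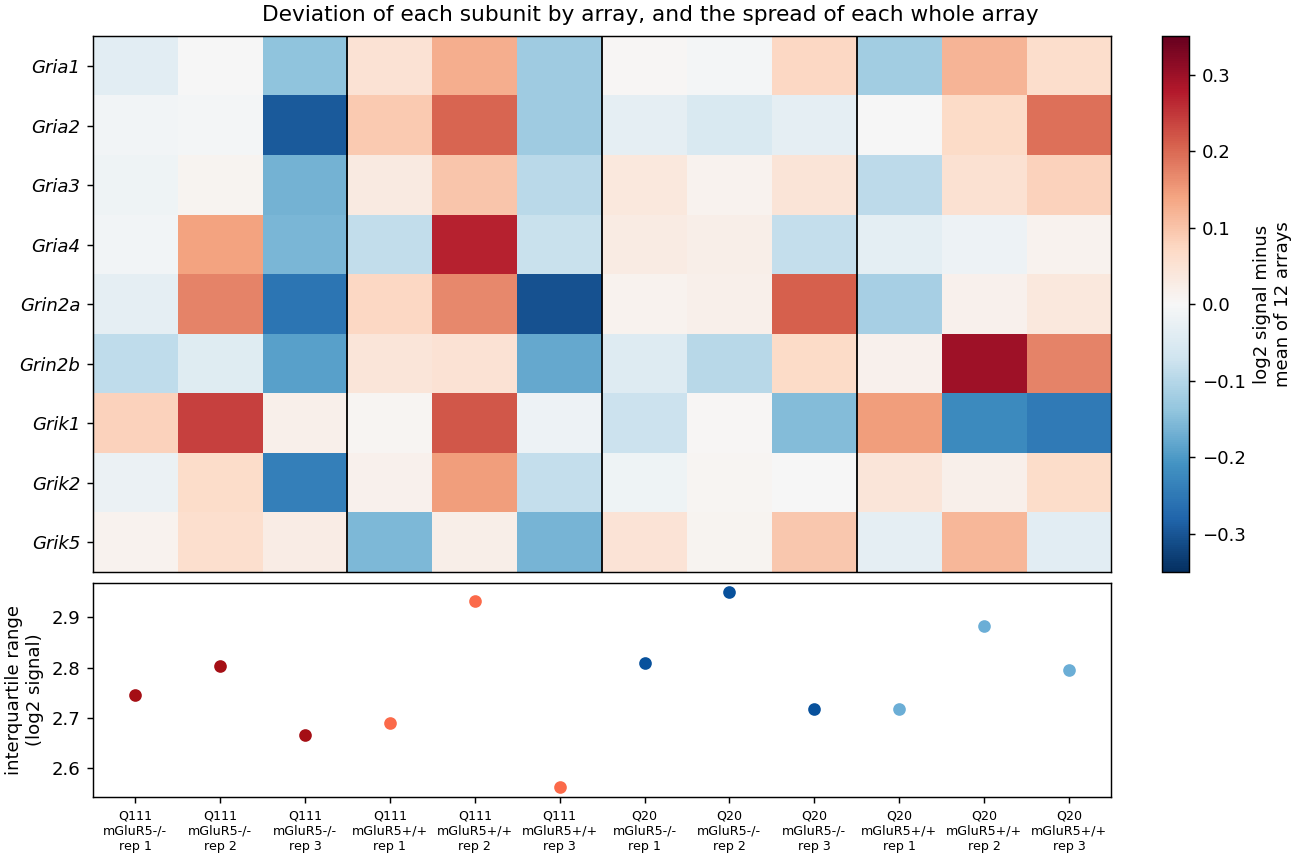
Deviation of each subunit (rows) from its mean over the 12 arrays (columns, by group), in log2 units; the lower panel gives the interquartile range of each array. The third Q111 mGluR5-/- array is the lowest for 6 of the 9 subunits, and the second Q111 mGluR5+/+ array is the highest for 5.

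Among 15256 named genes, the pattern most like each subunit over the 12 arrays was as follows. For the AMPA subunits these were Lrfn5 for Gria1 (r = 0.945), Csmd3 for Gria2 (0.944), Rnf214 for Gria3 (0.953) and Ell2 for Gria4 (0.937). For the NMDA subunits they were Kcnma1 for Grin2a (0.931) and Def8 for Grin2b (0.934). For the kainate subunits they were Cdc25a for Grik1 (0.884), Pkn2 for Grik2 (0.925) and Ppp1r8 for Grik5 (0.899). Each is the best match among many genes and is a description.

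The remaining ionotropic subunits gave 0 calls among the 7 tested (Grin2c, Grin2d, Grin3a, Grin3b, Grik3, Grik4 and the delta subunit gene Grid1) in all 8 comparisons. Grik3, a kainate subunit, had the smallest unadjusted p of the averaged effects, with a Q111 change of -0.12 ± 0.06 (limma adjusted p = 0.471).

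Calls among the other genes of the pathway fell on Neto2, Shisa6 and Slc17a8. Neto2, an auxiliary subunit of kainate receptors that slows their desensitisation, read 10.61, 10.54 and 10.42 in Q111 mGluR5-/- arrays, 10.80, 10.91 and 10.41 in Q111 mGluR5+/+ arrays, 11.08, 11.06 and 11.03 in Q20 mGluR5-/- arrays, and 10.93, 10.98 and 10.88 in Q20 mGluR5+/+ arrays. Its Q111 arrays lay below its Q20 arrays without overlap in mice lacking mGluR5, while 1 Q111 array reached into the Q20 range in mice with mGluR5. Neto2 fell with Q111 by 0.53 ± 0.11 on the log2 scale without mGluR5 (1.45-fold, limma adjusted p = 0.0395) and by 0.38 ± 0.08 averaged over mGluR5 genotypes (1.30-fold, limma adjusted p = 0.0316). With mGluR5 the value was -0.22 ± 0.11 (limma adjusted p = 0.781), or -0.07 without the third Q111 mGluR5+/+ array, and the interaction did not pass (-0.31 ± 0.16, limma adjusted p = 1.0). Leaving out 1 array ended the call in 10 of 12 cases for each of these comparisons; in both, the exceptions were replicates 2 and 3 of Q111 mGluR5+/+. Neto1, the other gene of this pair, was not called.

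Shisa6, an auxiliary subunit that holds AMPA receptors at the synapse, was lower in Q111 mice with mGluR5. It read 6.81, 7.19 and 6.62 in Q111 mGluR5-/- arrays, 6.65, 6.80 and 6.38 in Q111 mGluR5+/+ arrays, 7.05, 7.14 and 6.94 in Q20 mGluR5-/- arrays, and 7.45, 7.36 and 7.10 in Q20 mGluR5+/+ arrays. All Q111 mGluR5+/+ arrays lay below all Q20 mGluR5+/+ arrays, while the mGluR5-/- groups overlapped. Shisa6 had a low signal, and its Q111 mGluR5+/+ readings lay below the array medians of 7.05 to 7.16. Shisa6 fell by 0.70 ± 0.15 (1.62-fold, limma adjusted p = 0.047) with mGluR5, and its value was -0.17 ± 0.15 without it (limma adjusted p = 0.799), or -0.04 without replicate 3 and -0.33 without replicate 2 of Q111 mGluR5-/-. The interaction was 0.53 ± 0.21 and did not pass (limma adjusted p = 0.767). Leaving out 1 array ended the call in 9 of 12 cases; the exceptions were replicates 2 and 3 of Q111 mGluR5-/- and replicate 2 of Q111 mGluR5+/+.

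Slc17a8, the vesicular glutamate transporter VGLUT3, read 7.53, 7.30 and 7.59 in Q111 mGluR5+/+ arrays, against 7.86, 8.14 and 7.99 in Q20 mGluR5+/+ arrays. The groups did not overlap, and the fall was 0.52 ± 0.10 (1.44-fold, limma adjusted p = 0.0296); the call was lost when replicate 1 or 2 of Q111 mGluR5+/+ or replicate 2 or 3 of Q20 mGluR5+/+ was left out. In mice lacking mGluR5 it read 7.70, 7.81 and 7.72 in Q111 arrays, against 7.71, 7.87 and 7.86 in Q20 arrays, a value of -0.07, and the interaction did not pass (0.46, limma adjusted p = 0.482).

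**Figure D5:**
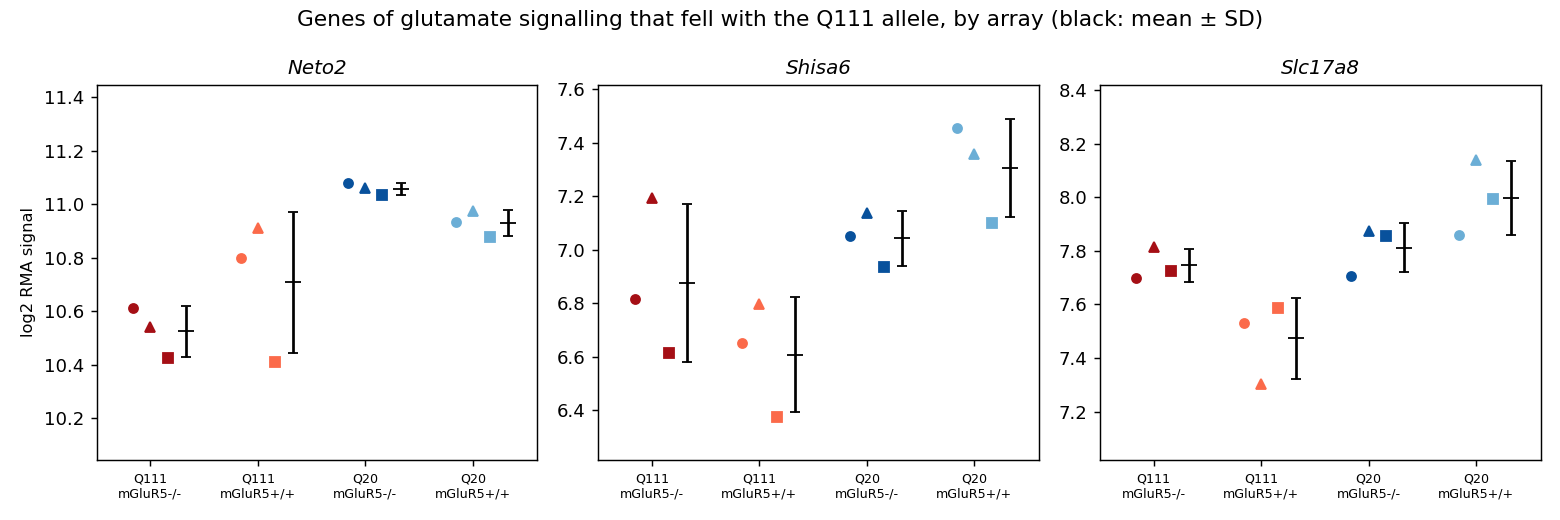
Log2 signal of Neto2, Shisa6 and Slc17a8 on every array, in the same group order, with the mean and SD of 3 arrays. Q111 arrays lie below Q20 arrays without overlap for Neto2 in mice lacking mGluR5 and for Shisa6 and Slc17a8 in mice with mGluR5.

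These were the calls among the 85 other genes of ionotropic glutamate signalling tested. For Q111 with mGluR5, 2 of 85 were called (2.35%, against 0.574% of all genes). For Q111 without mGluR5, 1 was called (1.18% against 0.885%), and for the averaged Q111 effect 1 (1.18% against 1.32%), shares near the background. In the other 5 comparisons 0 were called. Cacng5, an AMPA receptor auxiliary subunit singled out after its values were seen, read 8.72, 8.59 and 8.82 in Q111 mGluR5-/- arrays, 8.35, 7.94 and 8.20 in Q111 mGluR5+/+ arrays, 8.55, 8.69 and 8.58 in Q20 mGluR5-/- arrays, and 8.36, 8.46 and 8.13 in Q20 mGluR5+/+ arrays. The 6 arrays without mGluR5 lay above the 6 with it, where 0.305% of all tested genes had no overlap in either direction. The averaged change of 0.42 ± 0.08 stood just outside the threshold (limma adjusted p = 0.0507), where 0.293% of all genes were called.

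The lists with no call are given by their gene of smallest unadjusted p in the averaged effects. In receptor trafficking it was Nptx1, a secreted pentraxin that clusters AMPA receptors, at 0.23 ± 0.06 with mGluR5 loss (limma adjusted p = 0.283). Among postsynaptic scaffolds it was Lin7a, a PDZ protein, at -0.23 ± 0.09 with Q111 (limma adjusted p = 0.295). Among kinases and phosphatases it was Prkca, protein kinase C alpha, at -0.30 ± 0.09 with mGluR5 loss (limma adjusted p = 0.441). All 3 genes of the ADAR family of RNA editing proteins had negative values for the averaged Q111 effect, with Adar, which converts adenosine to inosine in RNA, at -0.14 ± 0.08 (limma adjusted p = 0.532).

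Marker lists of other cell types are given for the comparisons in which Neto2, Shisa6 and Slc17a8 fell. For Q111 without mGluR5, 9 of 10 endothelial and mural markers were negative (median -0.27), 7 of 9 microglial markers (median -0.15) and 5 of 6 choroid plexus markers (median -0.17), and 1 gene of the 3 lists was called, the pericyte gene Abcc9. The positive endothelial and mural marker was Slco1a4, whose change of 0.64 was the largest in size of that list and was not called. It averaged 7.66 in Q111 mGluR5-/- arrays, 7.46 in Q111 mGluR5+/+ arrays and 7.67 in Q20 mGluR5+/+ arrays, against 7.01 in Q20 mGluR5-/- arrays. Abcc9, given below, also had Q20 mGluR5-/- as the group set apart, in the other direction. The reason was not tested. The mean of the endothelial and mural list ran from 7.47 to 7.67 in Q111 mGluR5-/- arrays, 7.38 to 7.61 in Q111 mGluR5+/+ arrays, 7.71 to 7.74 in Q20 mGluR5-/- arrays and 7.52 to 7.72 in Q20 mGluR5+/+ arrays. The mean of the microglial list ran from 8.25 to 8.33 in Q111 mGluR5-/- arrays, against 8.32 to 8.54 in Q20 mGluR5-/- arrays, and that of the choroid plexus list from 6.34 to 6.51, against 6.58 to 7.01. The endothelial and choroid plexus means did not overlap between these groups, and the microglial means did. Of single genes, 19.1% did not overlap in this comparison, and no such share was computed for list means. Ttr had the largest change of the choroid plexus list, at -1.49. It read 7.25, 9.28 and 7.92 in Q20 mGluR5-/- arrays, against 7.16, 6.51 and 6.30 in Q111 mGluR5-/- arrays. The gap between the choroid plexus means depended on Ttr, as the means of the other markers of that list overlapped.

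Abcc9 read 6.82, 6.98 and 6.87 in Q111 mGluR5-/- arrays, 6.93, 6.91 and 6.89 in Q111 mGluR5+/+ arrays, 7.33, 7.36 and 7.37 in Q20 mGluR5-/- arrays, and 6.85, 6.87 and 6.96 in Q20 mGluR5+/+ arrays. The Q20 mGluR5-/- group lay above the other 3 groups. Its change was -0.46 ± 0.08 for Q111 without mGluR5 (limma adjusted p = 0.0109) and 0.46 ± 0.08 for mGluR5 loss in Q20 mice (limma adjusted p = 0.0203), and leaving out 1 array ended these calls in 3 and 6 of 12 cases.

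For Q111 with mGluR5, 8 of 10 endothelial and mural markers (median -0.20) and 8 of 11 markers of thalamus, hypothalamus and septum (median -0.13) were negative. In the same comparison 9 of 10 cortical projection neuron markers were positive (median 0.12), with 0 called in these lists. Of 6 choroid plexus markers, 4 were positive there (median 0.08), and 6 of 9 microglial markers were negative (median -0.07). Without mGluR5 the cortical list leaned the other way, with 7 of 10 markers negative (median -0.02). The thalamus, hypothalamus and septum list did so too, with 7 of 11 positive (median 0.07). The mean of the thalamus, hypothalamus and septum list ran from 7.22 to 7.33 in Q111 mGluR5+/+ arrays. It was 7.55, 7.22 and 7.36 in replicates 1, 2 and 3 of Q20 mGluR5+/+, so replicate 1 alone stood at the upper end. The mean of the cortical list ran from 7.68 to 7.95 in Q111 mGluR5+/+ arrays, against 7.62 to 7.79 in Q20 mGluR5+/+ arrays. Both lists overlapped between the groups. Of 10 striatal projection neuron markers, 5 were positive and 5 negative in both comparisons, with 0 called. Astrocytes, oligodendrocytes, their precursors and striatal interneurons had 0 markers called in either comparison. For the averaged Q111 effect, 9 of 10 endothelial and mural (median -0.21), 7 of 9 microglial (median -0.08) and 5 of 6 choroid plexus markers (median -0.03) were negative. Cortical markers were 7 positive and 3 negative there (median 0.06), and those of thalamus, hypothalamus and septum 5 positive and 6 negative (median -0.01). The part of these lists in the falls was not tested.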

How the data were processed

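Striatal RNA from 12 arrays in 4 groups was analysed. The authors deposited log2 values for 35556 probe sets; the submitters' processing notes name RMA and Partek Genomics Suite 6.5, and give no version for RMA. RMA usually brings arrays to a common distribution, which can compress changes; the interquartile range still differed between arrays (2.56 to 2.95). Probe sets were named from GEO's platform annotation: 21789 had 1 symbol, 1621 several and 12146 none, and only the first were used. A gene was represented by its probe set with the highest mean and was kept when above the 25th percentile of the array on at least 3 arrays.

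One mean per group was fitted over 12 arrays (8 residual degrees of freedom) with lmFit and eBayes in limma 3.58.1 under R 4.3.3, and p-values were adjusted by Benjamini-Hochberg over all 16721 genes in each of 8 comparisons. Standard errors are limma's. The code was tested on simulated data. The comparisons share groups, so their values are not independent, and the number of arrays limits precision. Named genes were all subunits, every called gene of the other lists or, in a list without one, that with the smallest unadjusted p in the averaged effects, and the closest-patterned gene per subunit. The members and lists were chosen with earlier results of these data known. Alternatives covered normalisation, filter, probe choice, model, replicate block, array weights and leaving out each array. Promoters were read from RefSeq (GRCm38.p6) with Python 3.11.15.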

Additional observations from a re-analysis of the deposited data

How the results depend on the processing

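The count of subunits called was recomputed under 27 alternative settings. It was 0 in each comparison under every one except array weights. With gene-by-gene weights, 1 subunit passed in the averaged Q111 effect, Grik1 (0.19, limma adjusted p = 0.0476). With weights from a REML fit that stopped before convergence, an alternative chosen after seeing the data, 1 subunit, Grin2b, passed both in mGluR5 loss in Q20 mice (-0.22, limma adjusted p = 0.026) and in the double mutant (-0.27, limma adjusted p = 0.035). Leaving out each array in turn gave counts of 0 to 0, with a smallest limma adjusted p of 0.157. With the replicate number as a block, 0 subunits were called in all 8 comparisons (smallest limma adjusted p = 0.211). The labels give no meaning to these numbers; deviations from the group means correlated above 0.1 in 11 of 18 same-number pairs and 7 of 36 others, and the best partner had the same number in 21 of 36 cases. All 6 pairs of replicate 2 correlated (0.339 to 0.567), while replicates 1 and 3 ran from -0.0357 to 0.22 and -0.144 to 0.462. Replicate 2 also had the widest interquartile range in each group, at 2.80, 2.93, 2.95 and 2.88 in the group order of the figures. The arrays thus shared structure by replicate number, most clearly for replicate 2. It fell short of the criterion that every pair exceed 0.1, so the block was kept as an alternative. No called change reversed; 120 of 1909 alternative values of the subunits, none of them called, had the opposite sign. Over their alternatives, Shisa6 lost its call under 17 of 27 (limma adjusted p 0.00139 to 0.406), Slc17a8 under 9 of 27 (0.00208 to 0.356), Neto2 without mGluR5 under 14 of 27 (4.09e-05 to 0.193) and Neto2 averaged under 13 of 26 (0.00211 to 0.116); the cause was not tested. Fits on the compared groups alone could not be made for the interaction and averages, and Grik1 dropped out under a filter at the array median. Grik1's low signal and 3 arrays a group limit what could be detected.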
